A study of Mus musculus with 42 samples.

Results

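The genes described are 10 transcripts of the integrated stress response and of the serine and one-carbon pathway it feeds, found in the table of normalized counts by their symbols Atf3, Atf4, Atf5, Ddit3, Ppp1r15a, Eif4ebp1, Mthfd2, Asns, Psat1 and Phgdh. All 10 were among the 13809 genes of the table and all 10 passed the filter on low values in both sequencing sets. RNAseq was made from tibialis anterior (TA) muscle of 4-month-old male C57BL/6J mice, in 42 libraries of 2 sets. Set 1 (22 libraries) held wild type (WT) mice, Sesn1SkM-Tg mice and Sesn2SkM-Tg mice. Sesn1SkM-Tg mice carry human SESN1 under the muscle creatine kinase promoter. Sesn2SkM-Tg mice carry a tetracycline-regulated human SESN2 driven in muscle by a transactivator under the same promoter. Set 2 (20 libraries) held WT mice and Sesn1KO (Sesn1-/-) mice, which lack Sesn1 in the whole body. In each genotype a basal group was compared with a group whose hindlimb had been immobilized for 3 days, and set 2 also held denervated WT muscle, for which a piece of the sciatic nerve had been removed. The methods of the paper give 3 or 10 days after induction of atrophy, without saying which applies to the denervated RNAseq samples. The treatments may therefore differ in duration as well as kind. Each of the 11 groups had 4 libraries, apart from the immobilized WT group of set 1 and the immobilized Sesn1SkM-Tg group, which had 3. The labels do not state that each library came from another mouse, so the spread between libraries may be in part technical.

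Cells meet shortage of amino acids, misfolded protein in the endoplasmic reticulum and mitochondrial faults by phosphorylating the initiation factor eIF2, which lowers translation in general and raises translation of the transcription factor ATF4. ATF4, with partners of its family, then raises transcription of genes for amino acid uptake and synthesis, for the serine pathway and for the mitochondrial folate cycle. The branch also holds its own brake, since PPP1R15A (GADD34) directs a phosphatase to eIF2. In muscle, sestrins restrain the kinase complex mTORC1, and mTORC1 activity itself can raise ATF4, so this set of genes lies where amino acid sensing and translation meet.

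Promoter sequence is shown for the members that hold a motif of this pathway in the window searched. That of Ddit3, which fell where other members rose, is shown beside them and holds neither motif in that window. Bases outside the window were not searched, so a motif further upstream would be missed. Whether the motifs relate to the direction of change was not tested. RefSeq promoters (GRCm38.p6, 250 bases before to 50 after the start) were found for 9 of the 10 genes, with 11 start sites. The C/EBP-ATF element, searched as TGATGNAA on both strands, occurred in 3.97% of all 32851 promoters, and the cAMP response element, TGACGTCA, in 1.79%. Asns and Atf3 held the first and Ppp1r15a the second, while neither was in the windows of Atf4, Atf5, Ddit3, Mthfd2, Psat1 and Phgdh. The lines run 5′ to 3′ along the gene, with the motif in capitals. Those of Asns (chr6:7693214-7693243, minus strand), Atf3 (chr1:191183341-191183483, minus), Ppp1r15a (chr7:45526269-45526418, minus) and Ddit3 (chr10:127290643-127290773, plus) read as follows.
Asns: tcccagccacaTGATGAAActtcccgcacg
Atf3: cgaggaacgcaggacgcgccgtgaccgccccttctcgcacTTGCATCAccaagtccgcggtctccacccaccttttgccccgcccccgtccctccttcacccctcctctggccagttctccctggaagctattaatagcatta
Ppp1r15a: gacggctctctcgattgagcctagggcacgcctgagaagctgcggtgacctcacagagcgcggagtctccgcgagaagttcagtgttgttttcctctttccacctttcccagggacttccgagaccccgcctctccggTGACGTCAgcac
Ddit3: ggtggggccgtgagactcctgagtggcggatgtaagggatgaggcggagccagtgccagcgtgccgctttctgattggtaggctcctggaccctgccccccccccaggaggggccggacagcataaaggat
The match began 23 bases before the start of Asns, 110 before that of Atf3, where it lies on the opposite strand, and 12 before that of Ppp1r15a. GENCODE starts Asns further upstream, so the 30 bases shown lie in its first annotated exon.

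In basal muscle Atf4 was by far the most abundant member. Per kb of exon, its normalized count in the basal WT muscle of set 2 was 63.9 ± 7.93 (mean ± SD, n = 4), and Atf5, a related factor, followed at 15.8 ± 1.18. Eif4ebp1, which encodes the translation repressor 4E-BP1, stood at 11.7 ± 1.36, Ddit3 at 9.42 ± 2.55 and Ppp1r15a at 7.05 ± 1.71 per kb, and Ddit3 did not differ beyond the spread from either neighbour in this order. Atf3 was lower at 1.57 ± 1.24. The 4 enzymes were scarce, with Mthfd2 at 0.713 ± 0.3, Phgdh at 0.357 ± 0.255, Asns at 0.33 ± 0.109 and Psat1 at 0.22 ± 0.0682 per kb, and the last 3 did not differ beyond their spread. Asns, Psat1 and Phgdh thus had normalized counts near 1 in basal libraries, where the number added before taking logs (1) shrinks a fold change.

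**Figure D1:**
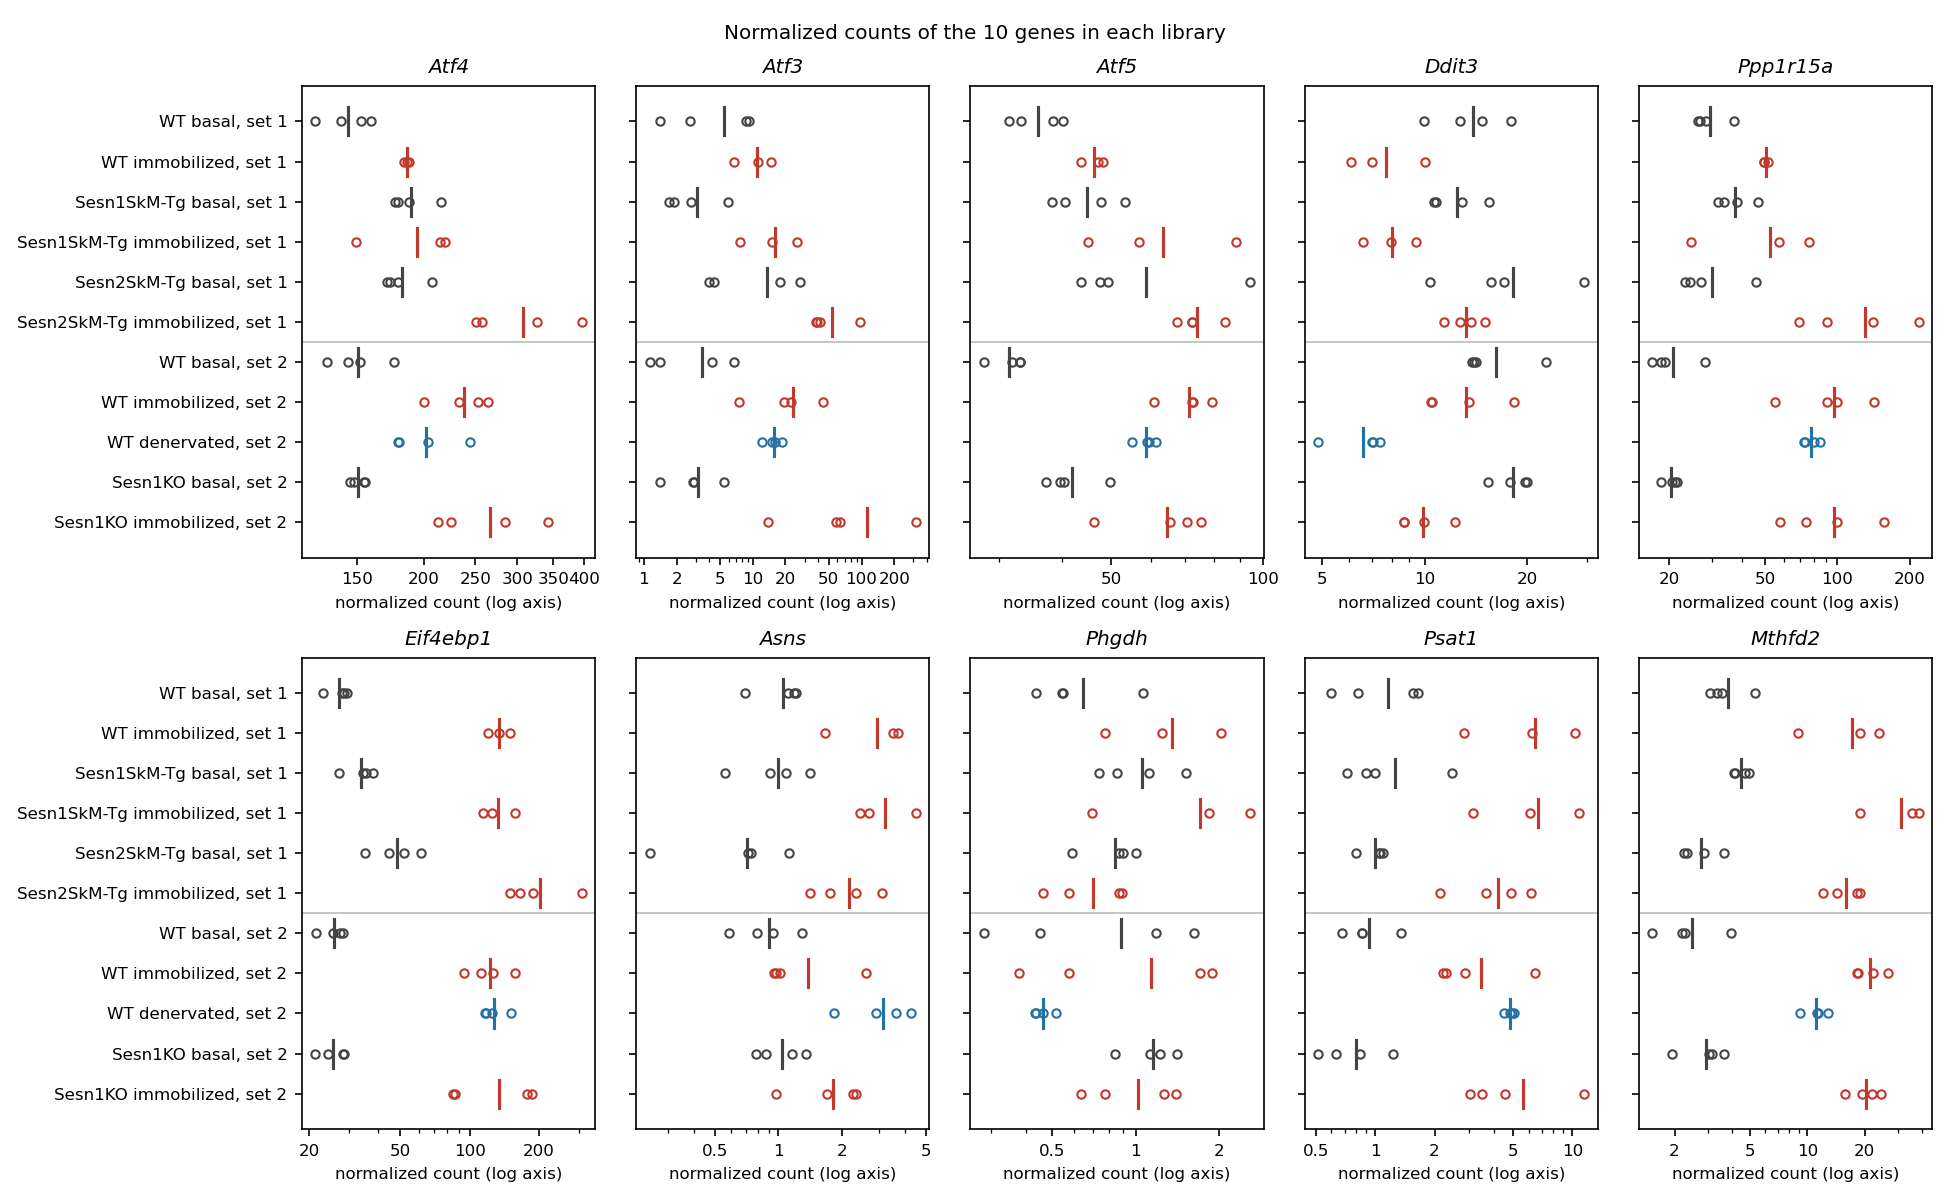
Normalized counts of the 10 genes in each of the 42 libraries, on log axes that differ between panels. Open circles are libraries, vertical bars are group means, and the grey line separates the sets, which are not compared in level. Eif4ebp1 and Mthfd2 are higher in every immobilized or denervated library than in every basal library of the same genotype and set, Ddit3 lies lower in the denervated libraries, and Atf3 spreads widely within several groups.

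In each of the 6 treatment comparisons 4 to 8 of the 10 members rose and 0 or 1 fell. With limma on log2(value + 1) and Benjamini-Hochberg adjustment over all genes tested, a gene was called where the adjusted p was below 0.05 and the log2 fold change was 0.25 or more in either direction. In immobilized against basal WT muscle of set 1, 4 of the 10 members rose and 1 fell, where 29.3% of the 13705 genes tested changed. In Sesn1SkM-Tg muscle 5 rose and 0 fell (34.7% of all genes changed), and in Sesn2SkM-Tg muscle 7 rose and 0 fell (30.7%). In set 2, 7 rose and 0 fell in immobilized WT muscle (33.9% of the 13629 genes tested), and 7 rose and 1 fell in Sesn1KO muscle (37.1%). Denervation raised 8 and lowered 1, beside a background of 55.5%. The median log2 fold change of the members lay between 0.75 and 1.35 over these 6 comparisons, and that of all genes between -0.027 and 0.0028. Eif4ebp1, Mthfd2 and Psat1 rose in all 6. In whole muscle, fewer cells of a type and less RNA per cell cannot be told apart. If every library is scaled to the same total, the median of all genes shifts upward by 0.25 to 0.27 in the immobilization comparisons of set 1 and by 0.37 on denervation, and 8 members rather than 5 then changed in immobilized WT muscle of set 1, with Atf4, Atf5, Ppp1r15a and Phgdh added and Ddit3 lost.

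**Figure D2:**
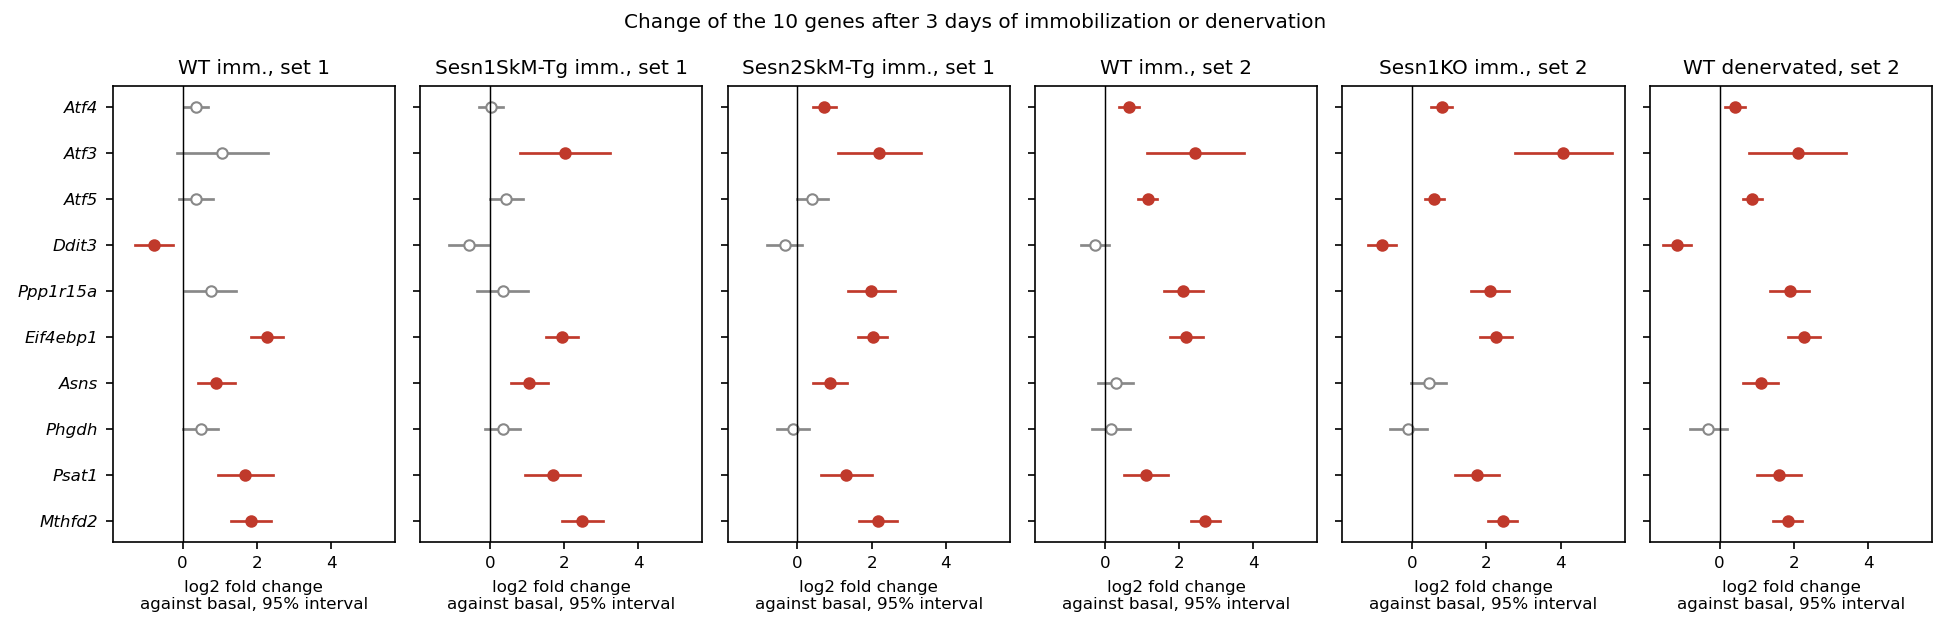
Log2 fold change of the 10 genes against the basal group of the same genotype and set, with 95% intervals, for the 5 immobilization comparisons and for denervation. Filled red points passed the test. The 3 days named in the title apply to immobilization, since the time after denervation was not stated for these samples. Eif4ebp1, Psat1 and Mthfd2 lie above 0 and passed in all 6 panels, Ddit3 lies below 0 in all 6 and passed in 3, and Phgdh passed in none.

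Atf4 (ENSMUSG00000042406, GRCm38 chr15:80255184-80257541), the central factor of the pathway, changed modestly. Its normalized counts in set 2 were 152, 132, 144 and 176 in basal WT muscle, 233, 253, 264 and 200.2 in immobilized muscle and 179.6, 179, 204 and 245 in denervated muscle. Both treated groups lay wholly above the basal one. The log2 fold change was 0.65 ± 0.13 (SE) on immobilization (adjusted p = 0.00069) and 0.41 ± 0.13 on denervation (adjusted p = 0.012), and the latter did not pass without denervated replicate 4 (log2 fold change 0.32, adjusted p = 0.057). Sesn1KO muscle rose from 156, 148, 154 and 145 to 343, 285, 212 and 226, with no overlap and a log2 fold change of 0.79 ± 0.13 (adjusted p = 8.4e-05). In set 1, Atf4 rose in Sesn2SkM-Tg muscle from 173, 208, 179 and 170.5 to 257, 396, 251 and 326, a log2 fold change of 0.73 ± 0.14 (adjusted p = 0.0007). The WT groups of set 1 did not overlap either, at 152, 139.8, 125 and 159.6 against 188, 186 and 184, but the log2 fold change of 0.37 ± 0.16 did not pass (adjusted p = 0.078), although it did with quantile normalization (0.53, adjusted p = 0.016). In Sesn1SkM-Tg muscle it was 0.02 ± 0.16, with overlapping groups.

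Ppp1r15a (ENSMUSG00000040435, chr7:45522916-45526268), the phosphatase subunit that reverses the eIF2 block, rose in the same 4 treatment comparisons as Atf4, by more in each. Basal WT libraries of set 2 stood at 19.2, 18.5, 17 and 28.1, immobilized ones at 90.4, 142, 100 and 54.9 and denervated ones at 72.8, 73.8, 80.1 and 85. No treated library came near the basal range. Log2 fold changes were 2.12 ± 0.25 on immobilization and 1.89 ± 0.25 on denervation (adjusted p = 1.6e-06 and 1.5e-06). Sesn1KO muscle went from between 18.4 and 21.5 to between 57.6 and 156 (log2 fold change 2.10 ± 0.25) and Sesn2SkM-Tg muscle from between 23.2 and 45.7 to between 69.6 and 218 (1.99 ± 0.31), both without overlap. The WT change of set 1, from 37, 26.8, 28.4 and 26.4 to 49.7, 51.5 and 49.7, had a log2 fold change of 0.76 ± 0.33 and an adjusted p of 0.091, but passed when only the compared groups were fitted (adjusted p = 0.01). Sesn1SkM-Tg muscle gave 0.35 ± 0.33, with immobilized replicate 2 (24.5) below all basal libraries.

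Atf3 (ENSMUSG00000026628, chr1:191170296-191218039), an early stress-induced repressor that ATF4 can raise, spread widely in several groups and had the largest single fold change among the members, in Sesn1KO muscle. In set 2 the values were 1.13, 1.41, 6.79 and 4.24 in basal WT muscle, 19.6, 7.47, 43.9 and 22.3 in immobilized muscle and 16.1, 18.6, 15.1 and 12.3 in denervated muscle. The denervated libraries lay within a narrow band, while the immobilized ones ranged from just above the highest basal library to several times that level. Log2 fold changes were 2.44 ± 0.63 on immobilization and 2.10 ± 0.63 on denervation (adjusted p = 0.0047 and 0.0073). Immobilized Sesn1KO muscle held 317, 63.9, 58.7 and 13.9 against 1.4, 2.83, 2.88 and 5.48 in basal muscle, a log2 fold change of 4.07 ± 0.63 (adjusted p = 3.1e-05), and replicate 1 stood about 5 times above the next library. In Sesn2SkM-Tg muscle the values were 3.93, 27.4, 4.37 and 17.9 before and 38.3, 96.7, 41.6 and 39.1 after immobilization (log2 fold change 2.21 ± 0.54). Sesn1SkM-Tg muscle rose from between 1.71 and 5.97 to between 7.71 and 25.4 (2.03 ± 0.59), and lost the call without immobilized replicate 3 (1.64, adjusted p = 0.081). The WT groups of set 1 overlapped, at 2.63, 1.39, 9.3 and 8.62 against 11.2, 14.6 and 6.73, and the log2 fold change of 1.07 ± 0.59 did not pass (adjusted p = 0.18).

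Atf5 (ENSMUSG00000038539, chr7:44812256-44816658), a factor translated in the same way as ATF4 and tied to mitochondrial stress, passed the test in set 2 and not in set 1. In set 2 the basal WT libraries stood at 28, 33, 32.9 and 31.8, the immobilized ones at 72.5, 79.3, 72.4 and 60.8 and the denervated ones at 55, 58.9, 61.2 and 59.4. Neither treated group overlapped with basal muscle, and log2 fold changes were 1.15 ± 0.12 (adjusted p = 5.7e-07) and 0.88 ± 0.12 (adjusted p = 3.8e-06). Sesn1KO muscle stood at 37.2 to 49.7 before and at 46.3 to 75.3 after immobilization, so that its groups overlapped although the change passed (0.60 ± 0.12, adjusted p = 0.00065). In set 1 the log2 fold changes were 0.37, 0.44 and 0.40 in WT, Sesn1SkM-Tg and Sesn2SkM-Tg muscle and did not pass. Without basal replicate 2 of the Sesn2SkM-Tg group, at 94.3 far above its 3 companions, the last was 0.65 and passed (adjusted p = 0.0056), and without immobilized replicate 2 the Sesn1SkM-Tg value was 0.66 (adjusted p = 0.043). The sets were not tested against each other. Exons of Atf5 share 82 bases each with Il4i1 and Nup62 on the other strand.

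Ddit3 (ENSMUSG00000025408, chr10:127290774-127296288), which encodes CHOP, the member of the family linked to cell death under lasting stress, fell in 3 of the 6 treatment comparisons. Denervated muscle held 7.07, 4.87, 7.41 and 6.99 against 14.2, 22.7, 13.8 and 13.9 in basal WT muscle, a log2 fold change of -1.16 ± 0.18 (adjusted p = 1.4e-05). Every denervated library lay below every basal one. In Sesn1KO muscle Ddit3 fell from 17.8, 19.9, 15.4 and 19.6 to 8.67, 9.93, 12.3 and 8.72 (-0.82 ± 0.18, adjusted p = 0.0011), again without overlap. In WT muscle of set 1 it fell from 9.97, 12.7, 17.9 and 14.8 to 7, 10.03 and 6.09, with 1 immobilized library in the basal range (-0.77 ± 0.25, adjusted p = 0.024). That call rested on single libraries, since it was lost without immobilized replicate 1 (-0.72, adjusted p = 0.065), immobilized replicate 3 (-0.63, adjusted p = 0.13) or basal replicate 3 (-0.64, adjusted p = 0.074), and with the same total per library (-0.46, adjusted p = 0.13). Sesn1SkM-Tg muscle (-0.58), Sesn2SkM-Tg muscle (-0.34) and immobilized WT muscle of set 2 (-0.28) did not pass, except the first when only the compared groups were fitted (adjusted p = 0.028). Exons of Ddit3 share 68 bases with Mars on the other strand, where reads cannot be told apart unless strand is counted, and 105 with a second annotated gene of the same symbol on the same strand, where strand would not separate them.

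Eif4ebp1 (ENSMUSG00000031490, chr8:27260329-27276674), the target of ATF4 whose protein binds eIF4E and is released from it by mTORC1, rose in all 6 treatment comparisons, by 1.94 to 2.27 on the log2 scale. In set 1 basal WT muscle held 29.2, 28.5, 22.9 and 27.9 and immobilized muscle 119.9, 134 and 149.9. In set 2 the basal libraries stood at 25.5, 21.5, 28.2 and 27.3, the immobilized ones at 112, 127, 157 and 94.9 and the denervated ones at 118, 152, 125 and 117. The treated groups stood 4.79 to 4.99 times above basal muscle by their means, and the lowest treated WT library was more than 3 times the highest basal one. Log2 fold changes were 2.27 ± 0.21 and 2.20 ± 0.21 for immobilized WT muscle in sets 1 and 2 and 2.27 ± 0.21 on denervation, with adjusted p from 1.1e-08 to 6.6e-07. Sesn1SkM-Tg, Sesn2SkM-Tg and Sesn1KO muscle gave 1.94 ± 0.21, 2.03 ± 0.19 and 2.26 ± 0.21. Immobilized Sesn1KO libraries fell into 2 pairs, 86.8, 187, 84.8 and 178, all above the basal range of 21.3 to 28.4.

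Mthfd2 (ENSMUSG00000005667, chr6:83305691-83325908), the mitochondrial folate enzyme that is abundant in embryos and dividing cells and scarce in adult tissue, rose most among the enzymes. In set 2 the values were 2.26, 2.18, 1.52 and 3.98 in basal WT muscle, 22, 18.2, 26.6 and 18.5 in immobilized muscle and 11.4, 12.8, 9.17 and 11.2 in denervated muscle. All treated libraries exceeded all basal ones, and the immobilized group lay above the denervated one. Log2 fold changes were 2.71 ± 0.19 (adjusted p = 2.8e-09) and 1.84 ± 0.19 (adjusted p = 6e-08). Sesn1KO muscle rose from between 1.94 and 3.63 to between 15.8 and 24.3 (2.44 ± 0.19). In set 1 immobilized WT muscle held 8.96, 23.9 and 18.9 against 3.33, 5.27, 3.54 and 3.08 (1.84 ± 0.27), Sesn1SkM-Tg muscle 38.5, 18.9 and 35.4 against 4.09 to 4.96 (2.48 ± 0.27) and Sesn2SkM-Tg muscle 14.2, 18.3, 12.1 and 19 against 2.23 to 3.65 (2.16 ± 0.25). Groups did not overlap in any of these comparisons.

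Asns (ENSMUSG00000029752, chr6:7675169-7693254), asparagine synthetase and a classical ATF4 target with the element shown above, rose after denervation and in set 1. Denervated libraries held 3.62, 4.23, 1.84 and 2.9 against 0.94, 0.585, 0.791 and 1.29 in basal WT muscle, a log2 fold change of 1.10 ± 0.23 (adjusted p = 0.00029). Immobilized WT libraries of set 2 held 0.959, 1.02, 2.59 and 0.976, so 3 of 4 stayed in the basal range, and the log2 fold change of 0.29 ± 0.23 did not pass (adjusted p = 0.35). Sesn1KO muscle did not pass either (0.44 ± 0.23), but did without immobilized replicate 3 (0.60, adjusted p = 0.044). In set 1 immobilized WT muscle rose from 0.693, 1.11, 1.21 and 1.18 to 1.67, 3.67 and 3.49 (0.91 ± 0.24, adjusted p = 0.0077), a call that was lost without immobilized replicate 3 (0.79, adjusted p = 0.055). Sesn1SkM-Tg and Sesn2SkM-Tg muscle gave 1.06 ± 0.24 and 0.88 ± 0.22, without overlap.

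Of the serine pathway, Psat1 rose and Phgdh did not pass in any treatment comparison. Psat1 (ENSMUSG00000024640, chr19:15904678-15947337), the aminotransferase of the second step, stood at 0.854, 1.35, 0.676 and 0.862 in basal WT muscle of set 2, at 2.21, 2.28, 2.87 and 6.45 after immobilization and at 4.51, 5.04, 4.82 and 4.95 after denervation. The denervated libraries were nearly level, while 1 immobilized library was well above the other 3. Log2 fold changes were 1.12 ± 0.29 (adjusted p = 0.0044) and 1.60 ± 0.29 (adjusted p = 6.7e-05), and from 1.32 in Sesn2SkM-Tg muscle to 1.74 in Sesn1KO muscle for the other genotypes. Immobilized WT muscle of set 1 rose from 1.56, 0.598, 0.816 and 1.65 to 2.83, 6.24 and 10.3, a log2 fold change of 1.69 ± 0.36. Phgdh (ENSMUSG00000053398, chr3:98313170-98339990), which encodes the first enzyme of the path from glycolysis to serine, held 0.434, 0.463, 0.436 and 0.515 in denervated muscle against 1.63, 0.282, 1.19 and 0.451 in basal muscle, where the basal libraries alone spread over that range (-0.31 ± 0.24, adjusted p = 0.29). Its log2 fold change on immobilization ran from -0.12 in Sesn2SkM-Tg muscle to 0.49 in WT muscle of set 1. The latter passed without immobilized replicate 1 (0.68, adjusted p = 0.047), as the Sesn1SkM-Tg value did without its immobilized replicate 1 (0.65, adjusted p = 0.026). The interval of the denervation effect, -0.81 to 0.20, includes a rise as well as a fall. The annotation names 1 pseudogene of a member, Phgdh-ps1, and the estimated counts can divide reads between such copies.

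Denervated and immobilized WT muscle of set 2, which were both compared with the same basal libraries, differed from each other in 3 members, 1 higher and 2 lower, where 38.9% of all genes differed. Asns was higher in denervated muscle (log2 difference 0.81 ± 0.23, adjusted p = 0.0065), although the groups overlapped through immobilized replicate 3. Ddit3 and Mthfd2 were lower, by -0.88 ± 0.18 and -0.87 ± 0.19 (adjusted p = 0.00054 and 0.00099), without overlap. Atf4, Atf3 and Ppp1r15a had differences of -0.24, -0.34 and -0.24, none of which passed, and the interval for Atf3, -1.65 to 0.97, is wide. Leaving out 1 library added calls, with Atf5 lower without immobilized replicate 4 (-0.34, adjusted p = 0.043), Psat1 higher without that library (0.76, adjusted p = 0.032) and Phgdh lower without immobilized replicate 3 (-0.66, adjusted p = 0.039). Atf5 also passed when only the compared groups were fitted (adjusted p = 0.037). With the same total per library the median of all genes shifted by 0.28, Psat1 passed (0.77), and the signs of the Atf4 and Ppp1r15a differences turned, to 0.10 each, without passing.

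For the genotype comparisons, the targeted genes were read in each group first. Sesn2 stood at 6.54 to 13.03 in basal Sesn2SkM-Tg muscle against 2.18 to 3.39 in WT muscle. Sesn1 was 8.42 to 10.1 in basal Sesn1KO muscle against 22.5 to 29.7 in WT muscle, and after immobilization 19.4 to 37.3 against 30.7 to 53.1, so the groups overlapped. Values of Sesn1 in Sesn1SkM-Tg muscle (41.6 to 77.6, against 14.98 to 22.1) can come from the human transgene only so far as they match the mouse gene. The same limit holds for Sesn2 in Sesn2SkM-Tg muscle, whose transgene is also human, so neither range measures the level of the transgene.

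Sesn2SkM-Tg muscle was the genotype in which members differed from WT muscle. The paper describes separate non-transgenic littermate controls for each transgenic line, but the labels of set 1 name a single WT genotype. They do not say which line its mice came from. Differences of line, litter or transactivator therefore cannot be told apart from that of the Sesn2 transgene. In the basal state 1 of 10 members was higher and 0 lower, where 2.5% of all genes differed. That member was Eif4ebp1, at 44.6, 61.3, 51.6 and 35.1 against 29.2, 28.5, 22.9 and 27.9, without overlap (0.78 ± 0.19, adjusted p = 0.027). The call was lost in 6 of the 8 fits that left out 1 library, where the adjusted p reached 0.12 without Sesn2SkM-Tg replicate 2 (0.66) and lay between 0.052 and 0.097 without Sesn2SkM-Tg replicates 1 (0.81) or 3 (0.74) or WT replicates 1 (0.82), 2 (0.81) or 3 (0.71). It was also lost with quantile normalization, with the same total per library and when only the compared groups were fitted (0 members each). Basal Atf4 and Atf5 were 0.34 and 0.63, did not overlap with WT muscle and did not pass (adjusted p = 0.26 and 0.1).

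After immobilization 3 members were higher and 0 lower in Sesn2SkM-Tg than in WT muscle of the same treatment, against 2.94% of all genes. Atf4 stood at 257, 396, 251 and 326 against 188, 186 and 184, a log2 difference of 0.70 ± 0.16 (adjusted p = 0.02). Atf3 stood at 38.3, 96.7, 41.6 and 39.1 against 11.2, 14.6 and 6.73 (2.15 ± 0.59, adjusted p = 0.048) and Ppp1r15a at 90.6, 218, 69.6 and 142 against 49.7, 51.5 and 49.7 (1.22 ± 0.33, adjusted p = 0.049). In all 3 genes every Sesn2SkM-Tg library was above every WT library. The calls nevertheless lay at the edge of the threshold. Atf3 was lost in 7 of 7 fits without 1 library (adjusted p 0.067 to 0.21), Ppp1r15a in all except the fit without Sesn2SkM-Tg replicate 3 (0.058 to 0.16) and Atf4 without Sesn2SkM-Tg replicate 2 (0.57, adjusted p = 0.053) or WT replicates 1 (0.70), 2 (0.70) or 3 (0.69). Over the 9 other settings Ppp1r15a lost its call in 8 and Atf3 in 6, and when only the compared groups were fitted Atf4 lost its call (adjusted p = 0.055) and Atf5 gained one (adjusted p = 0.023). Ddit3 (0.73), Atf5 (0.66) and Eif4ebp1 (0.54) were also higher in every Sesn2SkM-Tg library and did not pass, while Mthfd2 (-0.03), Asns (-0.31), Psat1 (-0.45) and Phgdh (-0.44) overlapped with WT muscle. The share of all genes without overlap was not counted, here or in other comparisons, so such separation is a description only. In limma 6 of the 10 members and 2637 of all 13705 genes had an unadjusted p under 0.05 here. Of 10 macrophage and leukocyte markers, 3 (C1qb, Csf1r and Emr1) were lower in the same comparison, with a summed level of 99.9 to 287 against 245 to 468. The summed fibroblast markers stood at 456 to 978 against 965 to 1802 and the endothelial ones at 377 to 506 against 321 to 378. The part of these cells in the result was not tested.

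For the other genotypes no member passed. Sesn1SkM-Tg against WT muscle gave 0 members in the basal state (0.0292% of all genes) and 0 after immobilization (0.0073%), with 1 member each under an unadjusted p of 0.05 in limma. Of all 13705 genes tested, 497 and 417 were under that unadjusted level. Basal Atf4 was 177, 179, 216 and 187 against 152, 139.8, 125 and 159.6, without overlap (0.40 ± 0.14, adjusted p = 1), and immobilized Mthfd2 was 0.85 (adjusted p = 1). Sesn1KO against WT muscle likewise gave 0 members in the basal state (0.147%) and 0 after immobilization (0.947%), with 1 each at the unadjusted level, Atf5 (0.39 ± 0.12, adjusted p = 0.72) and Atf3 (1.66 ± 0.63, adjusted p = 0.22). Of all 13629 genes tested, 632 and 1917 reached that level. The Atf3 difference passed without immobilized Sesn1KO replicate 4 (2.38, adjusted p = 0.019) and fell to 0.90 without replicate 1. The difference between the immobilization effect of each genotype and that of WT muscle was also tested. For Sesn1SkM-Tg muscle 0 members passed (0% of all genes) and 0 reached the unadjusted level, for Sesn2SkM-Tg muscle 0 passed (0.0073%) and 1 reached it, Ppp1r15a (1.24 ± 0.45, adjusted p = 0.52), and for Sesn1KO muscle 0 passed (0.022%) and 2 reached it, Atf5 (-0.55 ± 0.18) and Ddit3 (-0.55 ± 0.26). Of all genes, 401, 1008 and 1087 reached that level in these differences for Sesn1SkM-Tg, Sesn2SkM-Tg and Sesn1KO muscle. The 95% intervals of these differences are wide, for instance -0.81 to 0.11 for Atf4 and -0.14 to 1.42 for Mthfd2 in Sesn1SkM-Tg muscle, and do not show equal responses.

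Other genes of the pathway moved in part with the members. These counts are read against the share of all genes that passed, in either direction, which was 29.3%, 34.7% and 30.7% for immobilized WT, Sesn1SkM-Tg and Sesn2SkM-Tg muscle of set 1, 33.9% and 37.1% for WT and Sesn1KO muscle of set 2, and 55.5% for denervation. Of 20 genes of the endoplasmic reticulum unfolded protein response, 11 rose and 0 fell in immobilized WT muscle of set 1, 9 and 2 in Sesn1SkM-Tg, 11 and 0 in Sesn2SkM-Tg, 12 and 0 in WT muscle of set 2, 15 and 0 in Sesn1KO and 17 and 0 in denervated muscle. Xbp1, the factor spliced by the sensor IRE1, had the largest log2 fold change on denervation (1.60), in immobilized WT muscle of set 2 (0.72) and in Sesn2SkM-Tg muscle (1.04). Manf (1.11) led in WT muscle of set 1, Sdf2l1 (1.12) in Sesn1SkM-Tg and Dnajb9 (1.01) in Sesn1KO muscle, while Ern1, which encodes IRE1, was the lowest in Sesn1SkM-Tg muscle (-0.57). In the 3 comparisons where Ddit3 fell, 11, 15 and 17 of these genes rose. The median over the list ran from 0.45 to 0.59 on immobilization and was 0.91 on denervation.

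The 20 cytosolic aminoacyl-tRNA synthetases, many of which are ATF4 targets, changed in different numbers in the 6 comparisons. After denervation 19 rose and 0 fell, led by Vars (1.37), with a median of 0.58. In set 2 immobilization raised 11 in WT and 12 in Sesn1KO muscle and lowered 0, with Eprs at 0.92 and 1.08. In set 1 the counts were 3 higher and 2 lower in WT, 2 and 3 in Sesn1SkM-Tg and 5 and 0 in Sesn2SkM-Tg muscle, with Iars at -0.45 and -0.59 in the first pair and Vars at 0.95 in the last. Aars, Cars, Mars and Vars were higher in immobilized Sesn2SkM-Tg than in WT muscle (0.57, 0.55, 0.52 and 0.46), where 2.94% of all genes passed. Whether these calls held without 1 library or under other settings was not examined, and those of the members in this comparison lay at the edge of the threshold. Of the 15 genes for eIF2, its kinases, its exchange factor eIF2B and their regulators, 11 rose and 0 fell on denervation, 7 and 1 in immobilized WT and 8 and 0 in Sesn1KO muscle of set 2, but 1 and 0, 0 and 1, and 2 and 1 in WT, Sesn1SkM-Tg and Sesn2SkM-Tg muscle of set 1. The counts of set 1 are below the share of all genes that passed, for the synthetases as well. Impact, an inhibitor of the eIF2 kinase GCN2, rose most in set 2 (0.99, 1.01 and, on denervation, 1.31), and Eif2ak4, which encodes GCN2, fell in immobilized WT muscle of set 2 (-0.46) and in Sesn2SkM-Tg muscle (-0.50).

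**Figure D3:**
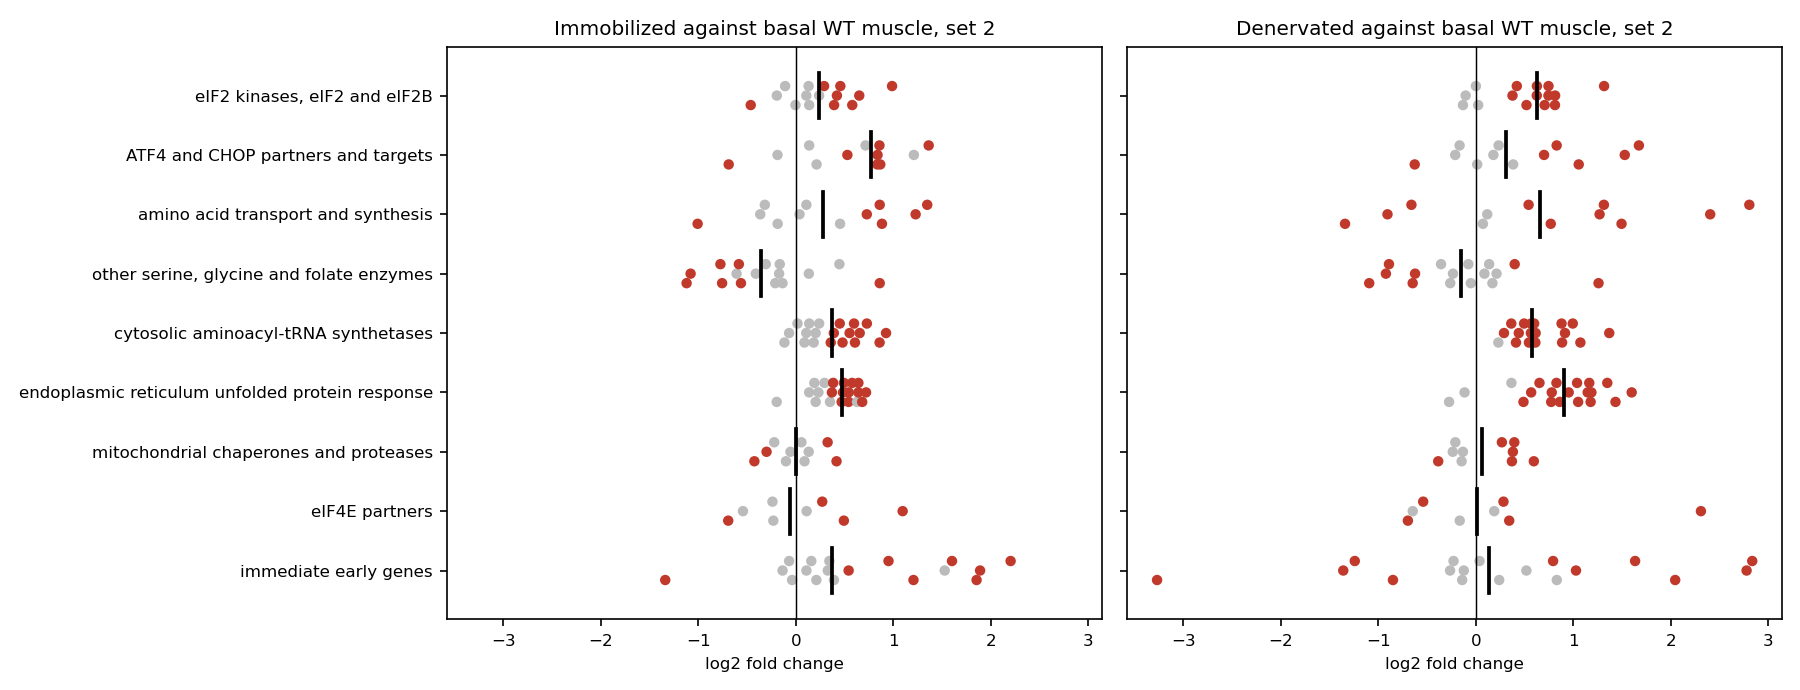
Log2 fold change of each gene of 9 lists related to the integrated stress response, in immobilized (left) and denervated (right) against basal WT muscle of set 2. Red points passed the test, grey points did not, and black bars are list medians. The synthetases have a median of 0.37 on immobilization and 0.58 on denervation, the unfolded protein response genes 0.48 and 0.91, while the remaining serine, glycine and folate enzymes lie mostly below 0.

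Partners and targets of ATF4 and CHOP were mixed. Of 12 genes tested, 3 rose and 0 fell in immobilized WT, 2 and 0 in Sesn1SkM-Tg and 5 and 0 in Sesn2SkM-Tg muscle of set 1, 6 and 1 in WT and 4 and 1 in Sesn1KO muscle of set 2, and 5 and 1 on denervation. In WT and Sesn1SkM-Tg muscle of set 1 and on denervation these counts are below the share of all genes that passed. Trib3, a pseudokinase that restrains ATF4, led in Sesn2SkM-Tg muscle (1.39) and in WT muscle of set 2 (1.36) but did not pass on denervation (0.38), where Cebpb led (1.67). Nupr1 fell in all 3 comparisons of set 2 (-0.69, -0.91 and -0.63). For amino acid transport and synthesis, 5 of 12 rose and 1 fell in WT, 4 and 1 in Sesn1SkM-Tg and 7 and 2 in Sesn2SkM-Tg muscle of set 1, 5 and 1 in WT and 6 and 1 in Sesn1KO muscle of set 2, and 7 and 3 on denervation. The leucine transporter subunit Slc7a5 rose on denervation by 2.80 and the glycine transporter Slc6a9 on immobilization of WT muscle by 1.48 and 1.35 in sets 1 and 2, while the transaminase Gpt2 was the lowest in all 6 comparisons (-1.72 to -0.79). Of the promoters found for these lists, 5 of 13, 4 of 10 and, for the synthetases, 5 of 13 genes held the C/EBP-ATF element, against 1 of 17 for the unfolded protein response, 1 of 12 for the eIF2 genes and 0 of 14 for the remaining serine, glycine and folate enzymes.

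The remaining 16 serine, glycine and folate enzymes did not follow Mthfd2 and Psat1. In each of the 6 treatment comparisons 1 or 2 rose and 4 to 6 fell. Counts in this paragraph stand beside 29.3% to 37.1% of all genes called on immobilization and 55.5% on denervation. On denervation the count of these enzymes lies below that share. Psph, the last enzyme of serine synthesis and the step after Psat1, fell in all 6, from -0.56 in immobilized WT muscle of set 2 to -1.09 on denervation, where it was the lowest of the list. Mthfd1l, a mitochondrial folate enzyme that acts after Mthfd2, rose in Sesn1SkM-Tg muscle (1.28), in both immobilization comparisons of set 2 (0.86 and 0.60) and on denervation (1.26). In WT muscle of set 1 the largest rise was that of Sfxn1, a mitochondrial serine carrier (0.67). The cytosolic enzyme Shmt1 was the lowest in Sesn1SkM-Tg muscle (-0.84) and Aldh1l2 in immobilized WT muscle of set 2 (-1.12). Of 8 partners of eIF4E, Eif4a1 rose in all 6 comparisons, by 1.01 to 2.31, and Eif4e fell in all 6 (-0.70 to -0.56), the opposite direction to Eif4ebp1. For this list 1 to 3 rose and 1 to 3 fell in each comparison. Of 10 mitochondrial chaperones and proteases, 0 rose and 4 fell in each genotype of set 1, 2 and 2 or 1 and 1 in WT and Sesn1KO muscle of set 2, and 5 rose and 1 fell on denervation, with Hspe1 at 0.59 and Dnaja3, which fell in all 6, at -0.39. Of 18 immediate early genes, 4 to 7 rose and 1 to 4 fell. Junb (2.83 on denervation) led among them in several comparisons and Nr4a1 was the lowest in all 6 (-3.27 to -1.22). Psph, Eif4e and Dnaja3 were followed through all 6 comparisons after their values had been seen.

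Some markers of other cell types changed in these comparisons. Of all genes, 29.3%, 34.7% and 30.7% were called in immobilized WT, Sesn1SkM-Tg and Sesn2SkM-Tg muscle of set 1. In set 2 the shares were 33.9% and 37.1% for immobilized WT and Sesn1KO muscle and 55.5% for denervation. The muscle fiber genes were abundant in every library, with a summed level of 65620 to 195400, and 10 of 10 fell on denervation (65620 to 88420 against 164600 to 181900 in basal WT muscle). Their sum was also lower, without overlap, in immobilized WT (94690 to 114600 against 149300 to 184100), Sesn1SkM-Tg (89100 to 129600 against 156800 to 165100) and Sesn2SkM-Tg muscle of set 1 (89160 to 122000 against 173500 to 195400) and in immobilized WT muscle of set 2 (143000 to 153200). All 10 macrophage and leukocyte markers and all 8 markers of proliferating cells rose in immobilized WT and Sesn1SkM-Tg muscle of set 1, with summed macrophage levels of 245 to 468 against 47.0 to 74.7 in WT muscle. In immobilized Sesn2SkM-Tg muscle and in immobilized WT muscle of set 2, 3 macrophage markers rose, and 1 (Cd68) did in Sesn1KO and in denervated muscle. These macrophage counts do not exceed the share of all genes. All 8 proliferation markers also rose on denervation (summed 34.6 to 53.2 against 20.4 to 27.8). In immobilized Sesn2SkM-Tg, WT set 2 and Sesn1KO muscle 1, 3 and 2 of them rose, and their sum did not overlap with basal muscle in any of the 3 (28.6 to 44.4 against 18.7 to 21.3, 34.8 to 38.6 against 20.4 to 27.8, and 29.9 to 49.3 against 18.2 to 22.9). On denervation 4 of 7 satellite cell and myoblast markers rose (summed 247 to 293 against 46.7 to 55.5), with Myog at 5.57. As a count this is near the share of all genes. Of 8 endothelial markers 3 to 7 rose in set 1, while in set 2 0 rose and 7, 2 and 8 fell in immobilized WT, immobilized Sesn1KO and denervated muscle, and of 8 fibroblast markers 4 rose in WT, 7 in Sesn1SkM-Tg and 0 elsewhere. Schwann cell markers rose in set 1 (5, 7 and 5 of 8), and neutrophil markers in at most 3 of 6. No marker was listed at 0, since the lowest value of the table was 0.00476. The part of these cells in the changes of the members was not tested.

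Within groups, libraries with more Atf4 also had more Ppp1r15a. After the mean of its group was subtracted from each log2 value, the 2 genes had Pearson's r = 0.871 and Spearman's rho = 0.85 over the 42 libraries. Mthfd2 and Asns followed at r = 0.578 and Atf5 and Ddit3 at r = 0.562, while Atf4 with Psat1 (0.0851) and Atf4 with Phgdh (0.0184) were near 0 and the lowest was Atf3 with Phgdh (-0.255). These are descriptions, since libraries of a group share treatment, handling and scaling.

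**Figure D4:**
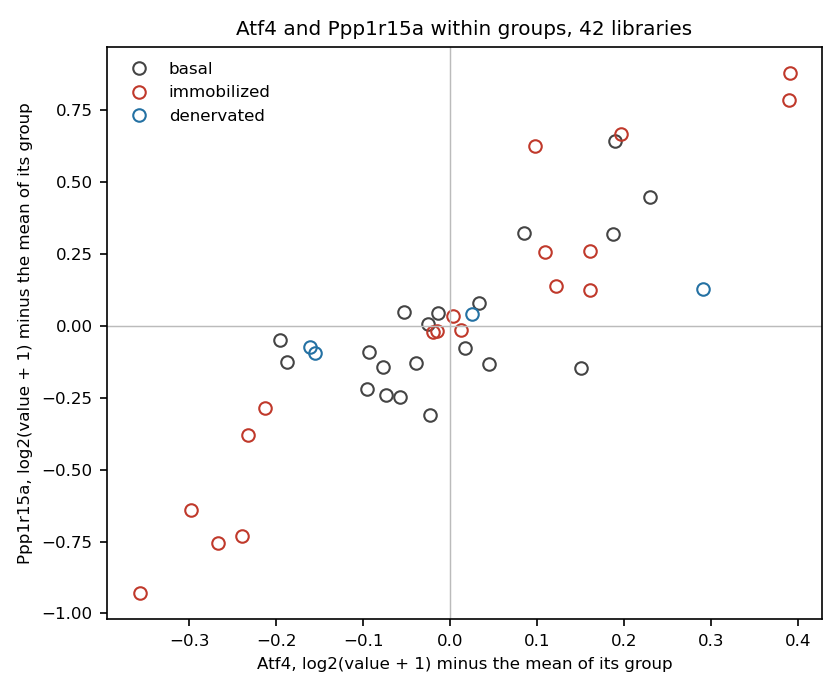
Atf4 (horizontal) and Ppp1r15a (vertical) in the 42 libraries, each as log2(value + 1) minus the mean of its group, coloured by treatment. Both genes rise together (Pearson's r = 0.871), with the immobilized libraries at both ends.

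Over all 42 libraries, with the mean of each set subtracted and among 8969 other genes with a mean of at least 5 in both sets, the genes most like Atf4 were Gtf2b (r = 0.905), Klhl30 (0.896) and Bcl7b (0.887). Those most like Mthfd2 were Rbm3, a cold-induced RNA-binding protein (0.946), Pdlim3 (0.933) and Cfl2, the muscle cofilin (0.933). For Asns they were Efhd2 (0.862), Cfl1 (0.856) and Gm10123 (0.854). Left without the 2 libraries farthest from the median, r was 0.82 to 0.95 for all 9 pairs. The points share treatment and set, so these values rank likeness of pattern only.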

How the data were processed

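The authors trimmed reads with Cutadapt 1.7.1 after FastQC, estimated gene counts with RSEM 1.2.20 on GRCm38 and normalized them in limma (edgeR is also listed in the submitters' processing notes). The deposited values are treated as a normalized signal, linear counts whose library sums ran from 722430 to 1276769. Whether they were also adjusted between the sets is not given in the sources used here, so levels were not compared across sets. Whole reads could not be recovered, so the depth of each library is unknown. Replicates of a group correlated at 0.959 to 0.991.

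Comparisons were made within a set only. Genes that reached 1 in any library of the set were retained, log2(value + 1) was fitted in limma 3.58.1 (R 4.3.3) with 1 coefficient for each group of the set and a trended empirical Bayes variance, and p-values were adjusted by Benjamini-Hochberg over all genes tested (two-sided). A call needed an adjusted p under 0.05 and a log2 fold change of at least 0.25 in size. Fold changes on this scale understate those of low genes. The fit was run on simulated data with normally distributed noise and a single size of added change, a log2 change of 2. That run did not examine smaller changes, and the genes of lowest level were not among those changed. The denervation and immobilization comparisons of set 2 share their basal WT libraries, and the genotype comparisons share the WT libraries of their set.

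The members and the other gene lists were chosen with earlier results of these data known. From each list the called gene with the largest change in each direction was named for each treatment comparison, as were the members of any count of 5 or fewer where given. Likeness was ranked by Pearson's r for Atf4, Asns and Mthfd2. Alternatives were a pseudocount of 0.1, no filter or a filter of 3 libraries, quantile normalization, the same total per library, median centring, no variance trend, a replicate block, only the compared groups, and leaving out each library. Gene positions are from GENCODE M21, promoters from RefSeq GRCm38.p6. Figures were drawn with Python 3.11.15, pandas 2.3.3 and matplotlib 3.10.9.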

Additional observations from a re-analysis of the deposited data

Results flagged for a closer look

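In groups of 4 libraries, 8 of 90 combinations of a member and a group held 1 library whose gap to its nearest companion passed Dixon's 95% limit. That limit is for normally distributed values, while these were taken without logs, and members share libraries. The number expected by chance is therefore not known. For Atf3 these were immobilized Sesn2SkM-Tg replicate 2, at 96.7 against 38.3 to 41.6 in the other 3, and immobilized Sesn1KO replicate 1, at 317.3 against 13.9 to 63.9. Basal Sesn2SkM-Tg replicate 2 held 94.3 of Atf5 against 43.6 to 49.4. For Ddit3, basal WT replicate 2 of set 2 was high, at 22.7 against 13.8 to 14.2, and denervated replicate 2 was low, at 4.87 against 6.99 to 7.41. Immobilized WT replicate 3 of set 2 held 2.59 of Asns, where the other 3 held 0.959 to 1.02. For Psat1, basal Sesn1SkM-Tg replicate 2 stood at 2.44 against 0.718 to 1.00 and immobilized WT replicate 4 of set 2 at 6.45 against 2.21 to 2.87. The calls that change without such a library are given beside each gene above.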

How the results depend on the processing

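Of 2880 fits of single members under an alternative, 2811 kept their side of the threshold (126 of these turned sign and passed in neither fit), 48 lost a call, 21 gained one and 0 reversed a called direction. Under the 9 settings other than leaving out 1 library, counts of members that passed moved by over 1.5 times in 3 comparisons. Immobilized against basal WT muscle of set 1 gave 8 with the same total per library, against 5 in the reported fit and 5 or 6 under the other settings. Basal Sesn2SkM-Tg against WT muscle gave 0 with quantile normalization, with the same total per library and with only the compared groups. Immobilized Sesn2SkM-Tg against WT muscle gave 1 with a pseudocount of 0.1, no filter, the same total per library, median centring, no variance trend or a replicate block. The cause was not tested. Leaving out 1 library gave 3 to 5 members for immobilization in WT, 4 to 6 in Sesn1SkM-Tg and 7 to 8 in Sesn2SkM-Tg muscle of set 1, 7 in WT and 8 to 9 in Sesn1KO muscle of set 2, 8 to 9 for denervation, 3 to 5 for denervated against immobilized muscle, 0 to 1 for basal and 0 to 2 for immobilized Sesn2SkM-Tg against WT muscle, 0 to 1 for immobilized Sesn1KO against WT muscle and 0 for the rest. Residuals of samples with the same replicate number had a median correlation of 0.0365 in set 1 (51 pairs, -0.452 to 0.534) and -0.0287 in set 2 (40 pairs). For samples with different numbers the medians were 0.019 and 0.00754. The pairs run over all groups of a set, including across genotypes. They therefore cannot show whether basal and immobilized samples of a genotype were paired. With a replicate block immobilized Sesn2SkM-Tg against WT muscle gave 1 member, against 3 without it. Counts of members in the other comparisons were the same as without it (such as 5, 7 and 9 for immobilized WT muscle of sets 1 and 2 and for denervation). With the same total per library the share of all called genes that were higher went from 50.7% to 84.7%, 52.3% to 82.6% and 48.9% to 80.4% for immobilized WT, Sesn1SkM-Tg and Sesn2SkM-Tg muscle of set 1, from 47.7% to 64.3% and 46.4% to 60.1% for WT and Sesn1KO muscle of set 2, from 50.1% to 77.1% for denervation, from 52.7% to 82.3% for denervated against immobilized muscle, and from 56.1% to 43.2% and 55.8% to 44.7% for immobilized Sesn2SkM-Tg and Sesn1KO against WT muscle. Without read depth, counting error could not be given for Asns, Psat1 and Phgdh, which lay near a value of 1.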
